A study of Rattus norvegicus with 6 samples.

Results

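A group of 10 genes of inflammation was followed in rat renal cortex: Nos2, which encodes inducible nitric oxide synthase, the chemokines Ccl2, Cxcl1, Cxcl10 and Ccl5, the cytokines Il1b, Il6 and Tnf, the adhesion molecule Icam1 and the signalling inhibitor Nfkbia. Every non-control probe whose accession is a RefSeq transcript of one of these genes was taken, which gave 14 probes for the 10 genes, out of 15645 genes with a named probe on the array. The treated group was 3 male Sprague-Dawley rats that received 4-hydroxy-m-phenylenediammonium dichloride, an aromatic diamine salt, at 100 mg/kg/day over 4 weeks, and the control group was 3 such rats on corn oil for the same time. The rats were 5 weeks old when bought, the sources used here do not name the vehicle of the compound, and each animal had 1 array of Cy3-labelled total RNA from the cortex. The comparison asked which transcripts differ in the cortex after dosing.

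Inducible nitric oxide synthase makes nitric oxide from arginine and is switched on by transcription, unlike the neuronal and endothelial synthases, which are held ready and set by calcium. In macrophages and in kidney tubule cells its gene responds to interleukin-1, tumour necrosis factor and interferon through transcription factors that include NF-kappaB. The same NF-kappaB route drives the chemokines that draw in leukocytes, the cytokines, the adhesion molecule that leukocytes bind on endothelium, and Nfkbia, whose protein holds NF-kappaB in the cytoplasm and so closes the loop.

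The promoters show what several of these genes share beyond their function. RefSeq promoter sequences of the build GRCr8, from 250 bases before to 50 bases after the gene start, matched 7 of the 10 genes, and Nos2, Ccl2 and Ccl5 were not among them. The kappaB consensus, the 10-base site that NF-kappaB dimers bind, was searched on both strands. At least 1 match lay in 4 of the 7 promoters, those of Cxcl1, Cxcl10, Il6 and Nfkbia, and in 7.51% of 33469 promoters of the same length. The promoters of Il1b, Tnf and Icam1 held no match in this window. The Cxcl10 promoter (chr14:15988816-15989115, plus strand) is printed because it holds 2 separate runs of matched bases, and the Nfkbia promoter (chr6:78597023-78597322, minus strand) because its product inhibits NF-kappaB. Capitals mark the matched bases.
Cxcl10: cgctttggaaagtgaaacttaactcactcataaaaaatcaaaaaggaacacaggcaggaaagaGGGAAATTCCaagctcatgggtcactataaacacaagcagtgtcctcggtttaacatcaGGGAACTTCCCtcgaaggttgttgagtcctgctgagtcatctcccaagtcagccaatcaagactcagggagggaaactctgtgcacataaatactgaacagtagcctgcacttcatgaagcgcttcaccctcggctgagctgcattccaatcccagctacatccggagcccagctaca
Nfkbia: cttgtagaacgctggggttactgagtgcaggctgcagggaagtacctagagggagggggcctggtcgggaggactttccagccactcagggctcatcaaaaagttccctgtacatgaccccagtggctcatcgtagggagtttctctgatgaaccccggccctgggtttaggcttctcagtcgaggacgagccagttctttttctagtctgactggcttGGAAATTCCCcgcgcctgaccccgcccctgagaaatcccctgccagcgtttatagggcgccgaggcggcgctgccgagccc
In Cxcl1, a chr14 gene on the minus strand, the match was GGGAATTTCCC, which begins 84 bases before the start and holds 2 overlapping matches, as the second run of Cxcl10 does. In Il6, on the minus strand of chr4, it was GGGATTTTCC, 68 bases before the start. A match describes the letters of the window and was not measured as a binding site.

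Levels below are log2 of the scanner's processed signal minus the 75th percentile of the array over its 61537 non-control probes, and differences are treated minus control. From 63.1% to 69.6% of the probes were well above background on the 6 arrays, and the number of arrays limits the precision. The control arrays all lay on slide 1 and the treated arrays on slide 2, with a scan for each, so no value below separates slide from treatment, which cannot be told apart. All 8 proximal tubule markers, 5 of 5 thick ascending limb markers and 6 of 6 collecting duct markers were well above background on every array, which are cell types the labelled tissue holds. A gene entered the test where a probe was well above background in all 3 animals of either group, and its brightest such probe stands for it. Of 12130 genes tested with limma, 4.38% were called at a Benjamini-Hochberg adjusted p under 0.05, 3.05% higher and 1.33% lower.

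Nos2 was the one mediator called. Of the 10 genes, 9 were tested, 1 was called higher, 0 were called lower and 8 did not pass, against 4.38% called among all genes. By limma p without adjustment, under 0.05, 1 member was higher and 1 lower, where all genes had 25.0%, with 11.8% higher and 13.2% lower. The median log2 fold change of the 9 was -0.09, against -0.03 for all genes tested. The groups did not overlap for Nos2, which was higher, and for Icam1, which was lower, while 32.8% of all genes did not overlap, 14.1% higher and 18.7% lower.

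**Figure D1:**
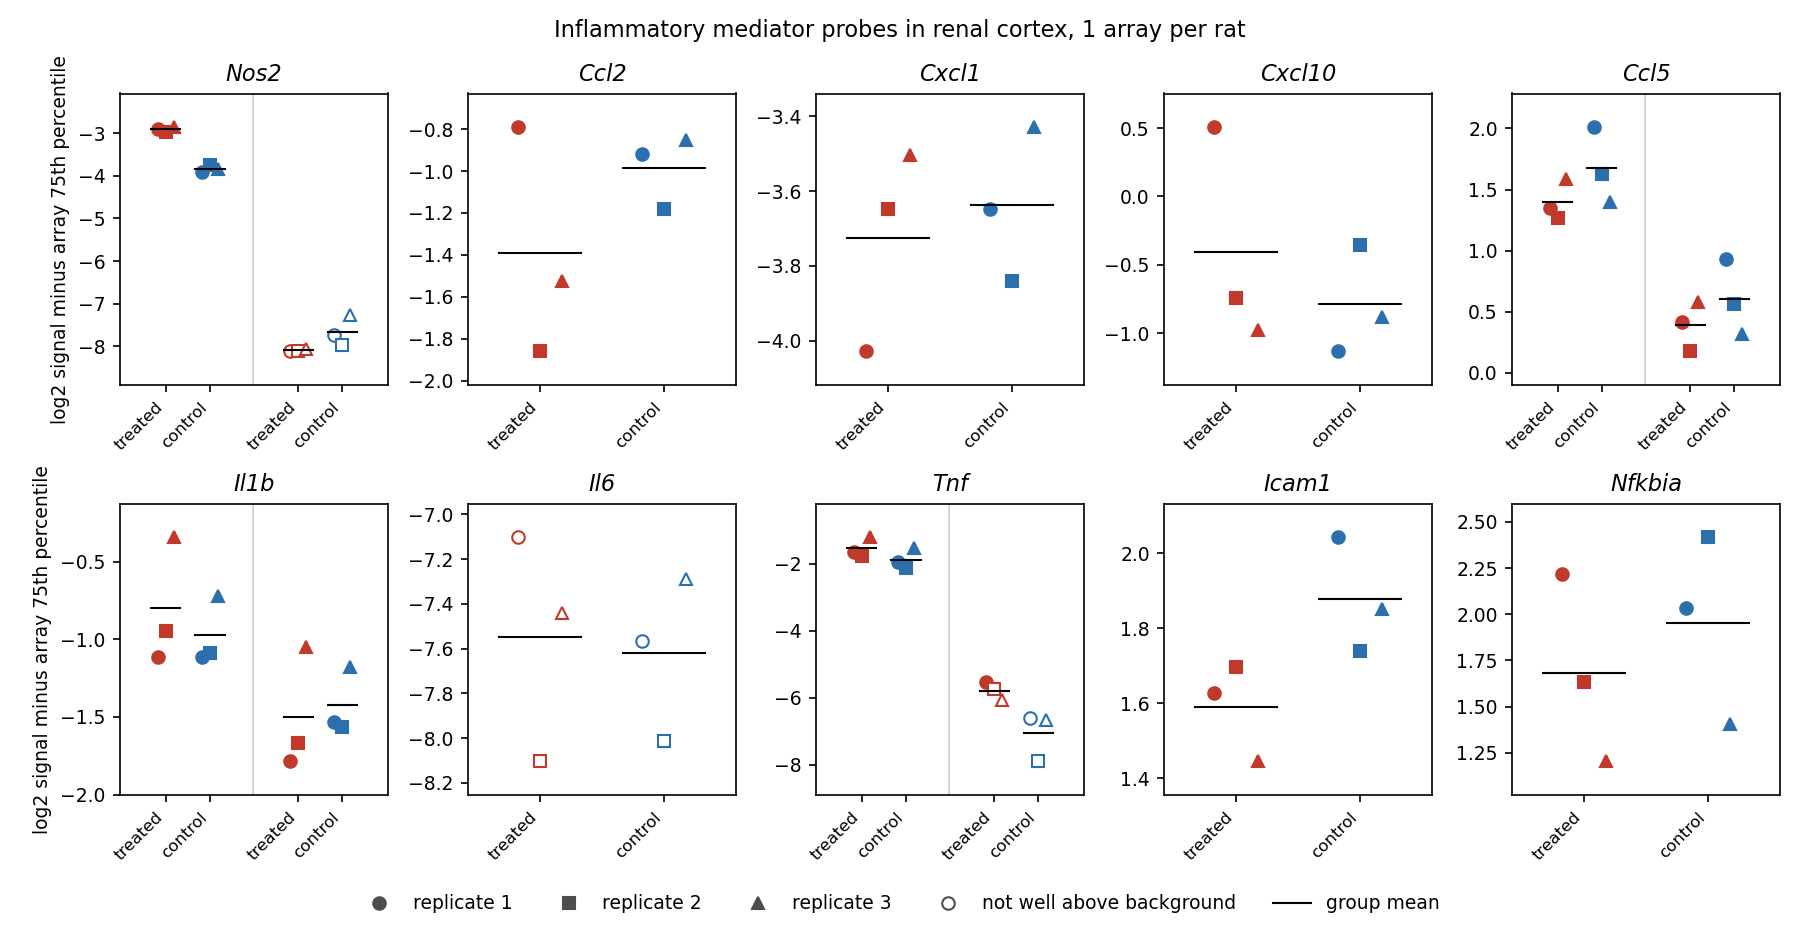
Level of each probe of the 10 genes on each array, as log2 signal minus the array's 75th percentile, with treated animals left of control animals. Each symbol is 1 rat, lines are group means of 3, open symbols are spots not well above background, and genes with 2 probes have 2 sets of points on each side of a grey line. The brighter Nos2 probe separates the groups, at -2.97 to -2.85 in treated animals and -3.91 to -3.75 in control animals.

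The processed signal of the brighter Nos2 probe was 135, 124 and 129 scanner units in the treated animals, against 60.3, 72.6 and 58.9 units in the control animals. On the log2 level scale these were -2.89, -2.97 and -2.85 in treated cortex and -3.91, -3.75 and -3.83 in control cortex. All 3 treated animals lay above all 3 control animals, and the spread within each group was small, with an SD of 0.06 and 0.08. Nos2 averaged -2.91 ± 0.06 in treated and -3.83 ± 0.08 in control animals (SD, n = 3 each), a log2 fold change of 0.92 (SE 0.07, 95% interval 0.76 to 1.09, limma adjusted p = 0.014). This is a 1.90-fold difference and the 9th smallest p among the 12130 genes. The call was lost, at an adjusted p of 0.0502, 0.059, 0.063 and 0.067, in the limma fits without control replicate 1, control replicate 3, treated replicate 2 and treated replicate 3, where the log2 fold change was 0.88 to 0.96. In these fits limma called 0 genes of all those tested, in either direction. In RNA from whole cortex, more cells with Nos2 and more Nos2 RNA per cell cannot be told apart.

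The other Nos2 probe, for the same transcript accession, was not well above background on any of the 6 arrays. Its processed signal was 3.61, 3.53 and 3.45 units in treated animals and 4.25, 3.86 and 5.46 units in control animals. The rise of Nos2 therefore rests on 1 of its 2 probes, and the dimmer one gives no fold change. In the fit over all 40988 probes that passed the filter, where 6.72% were called, 4.97% higher and 1.74% lower, the brighter Nos2 probe had an adjusted p of 0.0031 with limma, and it was the 1 called of the 11 member probes in that fit. By p without adjustment under 0.05, the one other member probe was that of Icam1, which was lower, as were 11.7% of all probes.

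The brighter probe stood close above its local background, and that background differed between the slides. The median pixel of its spot was 164.5, 157 and 160.5 units in treated animals (local background 60.0, 55.0 and 54.0) and 99, 122 and 93.0 units in control animals (local background 46.0, 45.5 and 37.0). Without local background the spot was 104.5, 102 and 106.5 units in treated animals, against 53.0, 76.5 and 56.0 units in control animals. The groups stayed apart on each of these readings, spot, local background and their difference, and the means of that difference had a ratio of 1.69. That ratio was not scaled between arrays, unlike the 1.90-fold difference above. The 75th percentile of the processed signal was 930 to 1001 units on treated and 837 to 976 units on control arrays. Over all non-control probes the median local background was 56.0, 53.0 and 49.0 units on the treated arrays and 47.0, 49.0 and 37.0 units on the control arrays. With normexp in place of the scanner's background correction, which adds an offset of 50 units, the log2 fold change of Nos2 was 0.39 (1.31-fold, adjusted p = 0.025).

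**Figure D2:**
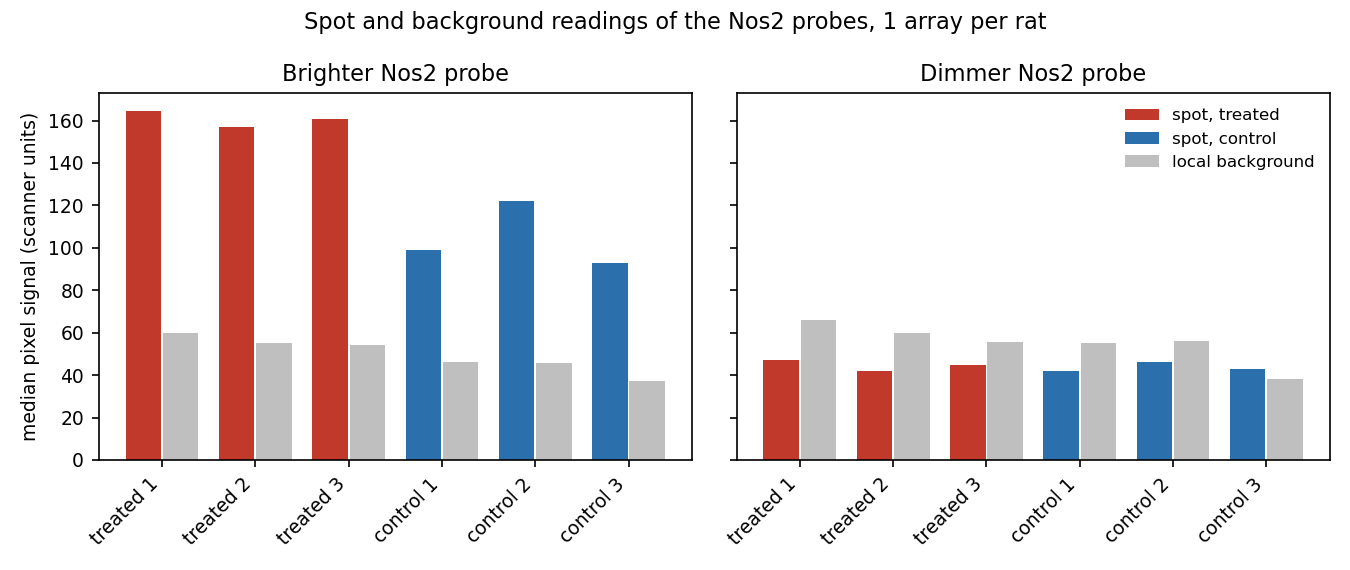
Median pixel signal of the spot (coloured) and of its local background (grey) for the 2 Nos2 probes on each array, in scanner units from 0, with treated arrays left of control arrays. The spot of the brighter probe reads 157 to 164.5 units on treated arrays and 93.0 to 122 on control arrays, while the spot of the dimmer probe lies below its local background on all arrays but control replicate 3.

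Chemosensory receptor genes, which are known mainly from sensory tissue, were read on the same arrays. Olfactory, vomeronasal, taste and trace amine receptors were taken by symbol, and 249 of 1335 passed the filter. That filter admits a gene through the group where it is brighter, and more probes were well above background on treated arrays, so the values of the 249 are partly set by it. Their median log2 fold change was 0.40. Limma called 43 higher and 0 lower, and by p without adjustment under 0.05 it had 50.2% higher and 3 genes lower. A log2 fold change at or above that of Nos2 was found for 31 of them, 12.4%, and for 182 of the 12130 genes tested. With the normexp background their median was 0.13, limma called 40 higher and 0 lower (2 by p without adjustment), and 11.2% of them and 4.12% of all genes were at or above Nos2. Among the 163 that were well above background on all 6 arrays, the median was 0.36, with 39 called higher and 0 lower (2 by p without adjustment), and 2.45% were at or above Nos2. Over all 1335 with no filter the median was -0.26, with 5 called higher and 0 lower (110 by p without adjustment). The direction of their median thus turned with the filter. Nos2 was well above background on all 6 arrays, as were the 163 genes with a median of 0.36. The part of these genes' shift in the Nos2 result was not tested.

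**Figure D3:**
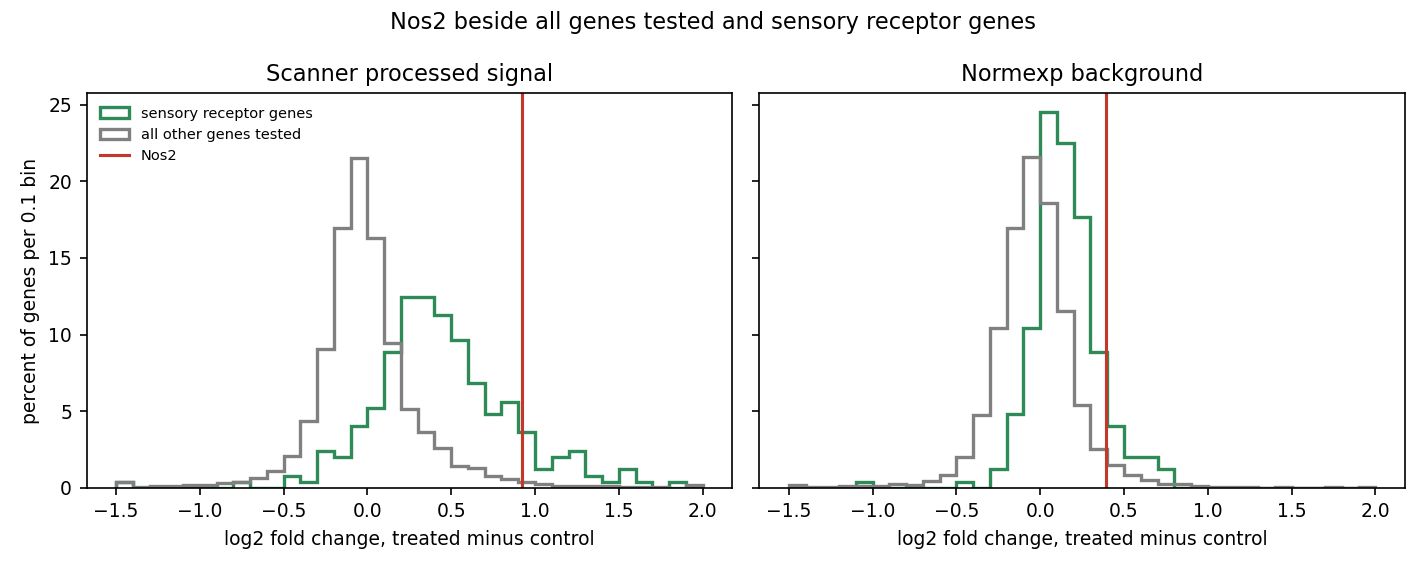
Distribution of log2 fold changes, treated minus control, in bins of 0.1, as percent of the sensory receptor genes (green) and of all other genes tested (grey), with Nos2 as a red line. Values beyond the axis are counted in the end bins. Nos2 stands at 0.92 with the scanner's processed signal and at 0.39 with a normexp background, and the median of the 249 sensory receptor genes that passed the filter is 0.40 and 0.13 in these panels.

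The 5 genes whose levels over the 6 arrays were most like those of Nos2 were chosen by the root mean square difference between values centred on each gene's own mean. They were Lkaaear1 at a difference of 0.02, Syt7 and Atxn2l at 0.06, and Gabrq and Fbxo17 at 0.08, on the log2 scale. Syt7 encodes a synaptotagmin, Gabrq a GABA receptor subunit, Atxn2l an RNA-binding protein and Fbxo17 an F-box protein. Each was called higher, with log2 fold changes of 0.93, 0.95, 0.88, 0.93 and 0.90 in the order given. Fold changes close to that of Nos2 follow from the choice by likeness and are no separate result. Of the other mediators, Tnf came nearest at 0.38, rank 1605 of 12129 genes, and Ccl2 was farthest at 0.74, rank 11495.

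Around the enzyme, no gene that supplies or relays nitric oxide was called higher. Of 20 genes of nitric oxide synthesis and signalling tested, 0 were called higher, 1 was called lower and 19 did not pass, and by p without adjustment under 0.05 limma had 0 higher and 4 lower. The median of the list was -0.11, against -0.03 for all genes, and 8 of the 20 were lower without overlap. Among all genes tested, 18.7% were lower without overlap and 13.2% were lower by limma p without adjustment under 0.05. The count called lower was 3 with a normexp background and 4 with an intensity trend, with 0 higher in both.

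Other steps of that route were measured as well, named here after their values were seen. Gch1, the rate-limiting enzyme of tetrahydrobiopterin synthesis, had levels of -2.28, -1.70 and -1.11 in treated animals and -2.75, -2.56 and -1.86 in control animals. The treated animals spread over more than the difference between the groups, and the log2 fold change of 0.69 did not pass (SE 0.36, 95% interval -0.21 to 1.59, adjusted p = 0.301). Its other probe gave 1.05. Nos3, the endothelial synthase, had a log2 fold change of -0.01 (adjusted p = 0.955, SE 0.12). Ass1, which rebuilds arginine from citrulline, had one of 0.09 (adjusted p = 0.668, SE 0.12). Nos1, the neuronal synthase, and the arginine carrier Slc7a2 were not well above background on any array.

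The 4 chemokines showed no called difference and varied from animal to animal. Ccl2 encodes monocyte chemoattractant protein, the ligand of Ccr2 on monocytes. Its level was -0.79, -1.86 and -1.52 in treated animals and -0.92, -1.18 and -0.85 in control animals. Treated replicate 1 lay above every control animal and the other treated animals below every one. The log2 fold change was -0.41 (SE 0.28, 95% interval -1.10 to 0.28, adjusted p = 0.414), and leaving out treated replicate 1 made it -0.71 (adjusted p = 0.110).

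Cxcl10, an interferon-induced ligand of Cxcr3 on T cells, was high in 1 animal. It stood at 0.51, -0.74 and -0.97 in treated animals, against -1.13, -0.35 and -0.88 in control animals, which as signal was 1423, 583 and 474 units and 414, 765 and 455 units. Treated replicate 1 was above all other animals, and the remaining treated animals lay within the control range. The log2 fold change was 0.38 (SE 0.43, 95% interval -0.68 to 1.45, adjusted p = 0.618), and it was -0.07 without that animal (adjusted p = 0.895).

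Cxcl1, a neutrophil attractant known in the rat as CINC-1, had levels of -4.03, -3.65 and -3.50 in treated animals and -3.65, -3.84 and -3.43 in control animals. The groups overlapped, with a log2 fold change of -0.09 (SE 0.17, 95% interval -0.51 to 0.33, adjusted p = 0.786) that changed sign, to 0.18, with a normexp background. Ccl5, a T cell and monocyte attractant, stood at 1.35, 1.27 and 1.58 in treated animals and 2.01, 1.63 and 1.40 in control animals at its brighter probe. At the other probe the levels were 0.42, 0.18 and 0.58 in treated animals and 0.93, 0.56 and 0.32 in control animals. Both probes overlapped between the groups and gave like differences, -0.28 (SE 0.18, 95% interval -0.71 to 0.16, adjusted p = 0.378) and -0.21 (adjusted p = 0.525 over all probes).

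The wider chemokine family gave the same count of calls as these 4. Of 26 other chemokine genes tested with limma, 0 were called, with 1 higher and 3 lower by p without adjustment under 0.05 and a median of -0.16. By that p, 11.8% of all genes were higher and 13.2% lower. The smallest p values were those of Ccl6, a macrophage chemokine known from rodents, with a log2 fold change of -0.38 (adjusted p = 0.125, SE 0.12), and Xcl1, lymphotactin, with one of -0.33 (adjusted p = 0.138, SE 0.11). The groups did not overlap for either gene. Ccl25 and Cxcl6 were not well above background on any array.

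Among the cytokines, Il1b, the secreted interleukin-1 beta, had levels of -1.11, -0.95 and -0.34 in treated animals and -1.12, -1.09 and -0.72 in control animals at its brighter probe. Replicate 3 was the highest of its group in both groups. The log2 fold change of 0.17 (SE 0.23, 95% interval -0.39 to 0.73, adjusted p = 0.672) was set beside -0.08 at the other probe, which had -1.79, -1.67 and -1.05 in treated animals and -1.53, -1.56 and -1.18 in control animals. The 2 probes thus differed in sign, and neither passed.

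Tnf, tumour necrosis factor, stood at -1.64, -1.77 and -1.21 in treated animals, against -1.95, -2.14 and -1.53 in control animals. The treated mean was higher, but the highest control animal lay above 2 treated animals, and the log2 fold change of 0.34 did not pass (SE 0.21, 95% interval -0.18 to 0.86, adjusted p = 0.374). The other Tnf probe was well above background on 1 treated array and on no control array, at 21.7, 18.1 and 13.7 units in treated animals and 9.41, 4.08 and 8.28 units in control animals, and was not tested. Il6, interleukin-6, has 1 probe, and no array showed it well above background. Its signal was 7.28, 3.54 and 5.36 units in treated animals and 4.80, 3.78 and 5.36 units in control animals, where probes rated well above background began at 15.8 to 16.2 units on treated and 17.5 to 24.2 units on control arrays. No fold change can be given for Il6.

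The rest of the interleukin-1 family and the inflammasome, the complex that matures interleukin-1 beta, gave 0 calls among 9 genes tested with limma and 0 by p without adjustment under 0.05, with a median of -0.06. Il18 and Casp1 had the smallest p values, with log2 fold changes of 0.30 (adjusted p = 0.227, SE 0.13) and -0.09 (adjusted p = 0.515, SE 0.08). Il1a was not well above background on any array.

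Icam1, the endothelial and epithelial ligand of leukocyte integrins, was lower in each treated animal but was not called. Its level was 1.63, 1.70 and 1.45 in treated animals and 2.04, 1.74 and 1.85 in control animals. The gap between the groups was narrow, without overlap. The log2 fold change was -0.29 (SE 0.11, 95% interval -0.55 to -0.02), with an unadjusted p of 0.038 and an adjusted p of 0.174. Of 9 other adhesion genes tested with limma, 0 were called in either direction and 0 had an unadjusted p under 0.05, with a median of 0.01. Jam2, a junctional adhesion molecule, and Cd44, the hyaluronan receptor, had the smallest p values, with log2 fold changes of 0.19 (adjusted p = 0.226, SE 0.08) and -0.27 (adjusted p = 0.257, SE 0.13). Selp and Madcam1 were not well above background on any array.

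Nfkbia, which encodes the inhibitor IkappaB alpha and is itself an NF-kappaB target, spread widely within both groups. It stood at 2.22, 1.63 and 1.20 in treated animals and 2.03, 2.42 and 1.41 in control animals, so that replicate 3 was the lowest of each group. The log2 fold change was -0.27 (SE 0.35, 95% interval -1.13 to 0.59, adjusted p = 0.670). It ran from -0.54 to -0.03 over the fits that left out 1 array.

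**Figure D4:**
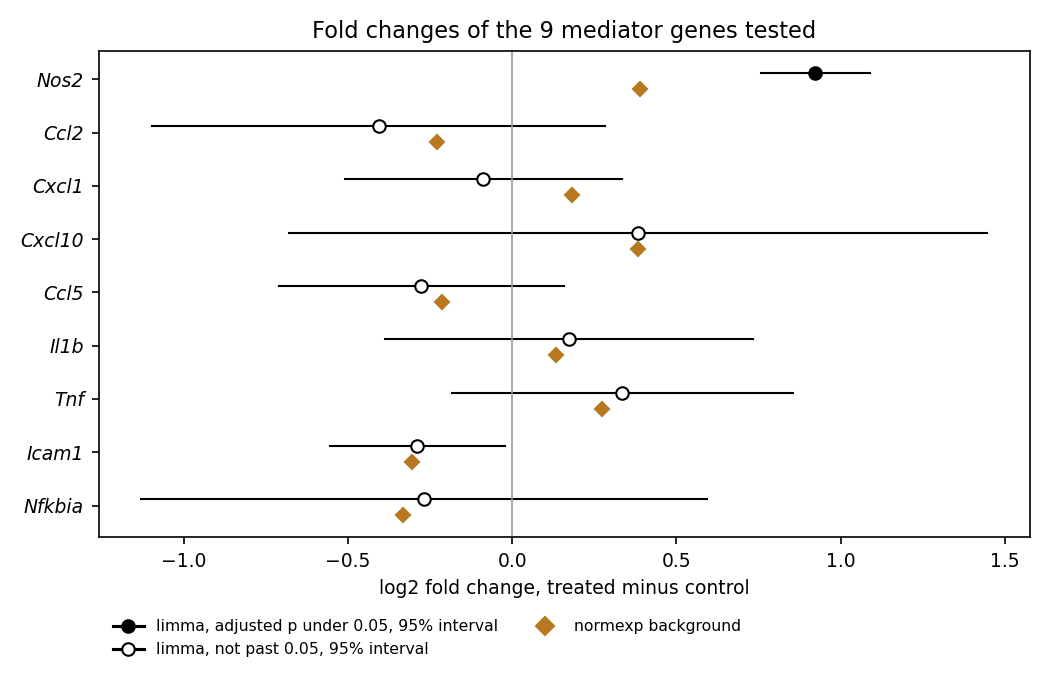
Log2 fold change, treated minus control, of the 9 mediator genes tested, with the 95% interval of the limma fit (circles, filled where the adjusted p is under 0.05) and the value with a normexp background (diamonds). Nos2 is the 1 filled circle, the interval of Icam1 ends just below 0, and the 7 other intervals span 0.

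Of the machinery of NF-kappaB, 24 genes were tested and limma called 0, with 2 higher and 3 lower by p without adjustment under 0.05 and a median of -0.06. By that p, 11.8% of all genes were higher and 13.2% lower. Nfkbie, which encodes another inhibitor of the same family as Nfkbia, had a log2 fold change of -0.31 (adjusted p = 0.072, SE 0.07). Irak4, a kinase below the interleukin-1 and Toll-like receptors, had one of 0.49 (adjusted p = 0.113, SE 0.14). Both were without overlap between the groups. Nfkb1, Relb, Rel and Tnfaip3 are among the 9 listed genes with no probe matched by accession here, so the list is measured in part.

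Among other target genes of NF-kappaB, limma called 0 of 20 tested, with 2 higher and 2 lower by p without adjustment under 0.05 and a median of -0.01. Zc3h12a, an RNase that degrades Il6 and other cytokine transcripts, had a log2 fold change of 0.36 (adjusted p = 0.085, SE 0.09). Cd40, a receptor of antigen-presenting cells, had one of -0.45 (adjusted p = 0.123, SE 0.14). Of 11 transcription factor genes known to act on the Nos2 promoter, limma called 0, with 0 higher and 2 lower by p without adjustment under 0.05 and a median of 0.01. The counts of both lists stand beside 11.8% higher and 13.2% lower over all genes by the same p. Nfe2l2, which encodes NRF2, and Jun had log2 fold changes of -0.21 (adjusted p = 0.188, SE 0.08) and -0.20 (adjusted p = 0.197, SE 0.08), and their other probes gave -0.01 and -0.48.

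On the side of the receptors, 1 of 11 genes tested was called lower and 0 higher. The remaining 10 were not called, and the list had 1 higher and 2 lower by p without adjustment under 0.05 and a median of -0.06. Over all genes tested, limma called 1.33% lower and 3.05% higher, and by the p without adjustment it had 11.8% higher and 13.2% lower. The called gene was Il1rap, the accessory chain that the interleukin-1 receptor needs to signal. It stood at -1.61, -1.47 and -1.52 in treated animals, against -1.02, -0.99 and -1.06 in control animals, a log2 fold change of -0.51 (adjusted p = 0.023, SE 0.06). Its other probe gave -0.01. With the mean of both probes the value was -0.26 and the call was lost (adjusted p = 0.113), as it was without a filter on dim probes (adjusted p = 0.053) and in all 6 fits that left out 1 array (0.058 to 0.084). Those 6 fits called 0 to 48 of all genes higher and 0 to 6 lower, against 370 and 161 with all arrays.

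Genes of the interleukin-6 and STAT3 response gave 1 call higher and 0 lower among 18 tested. The remaining 17 were not called, and the list had 4 higher and 1 lower by p without adjustment under 0.05 and a median of 0.01. Among all genes tested, limma called 3.05% higher and 1.33% lower. By the p without adjustment it had 11.8% higher and 13.2% lower. The called gene was Stat3, the transcription factor below the interleukin-6 receptor, at 2.17, 2.20 and 2.17 in treated animals and 1.58, 1.62 and 1.83 in control animals. Its log2 fold change was 0.50 (adjusted p = 0.036, SE 0.08), but its other probe gave -0.14. The mean of its probes was 0.18 (adjusted p = 0.222), and the call was also lost without a filter on dim probes (adjusted p = 0.074) and in each fit that left out 1 array (adjusted p = 0.059 to 0.113). Few genes of all those tested passed in the fits without 1 array, 0 to 48 higher and 0 to 6 lower. Socs3, a feedback inhibitor induced by STAT3 and picked for this text with its values known, had a log2 fold change of 0.62 (adjusted p = 0.060, SE 0.13) and 0.55 at its other probe.

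**Figure D5:**
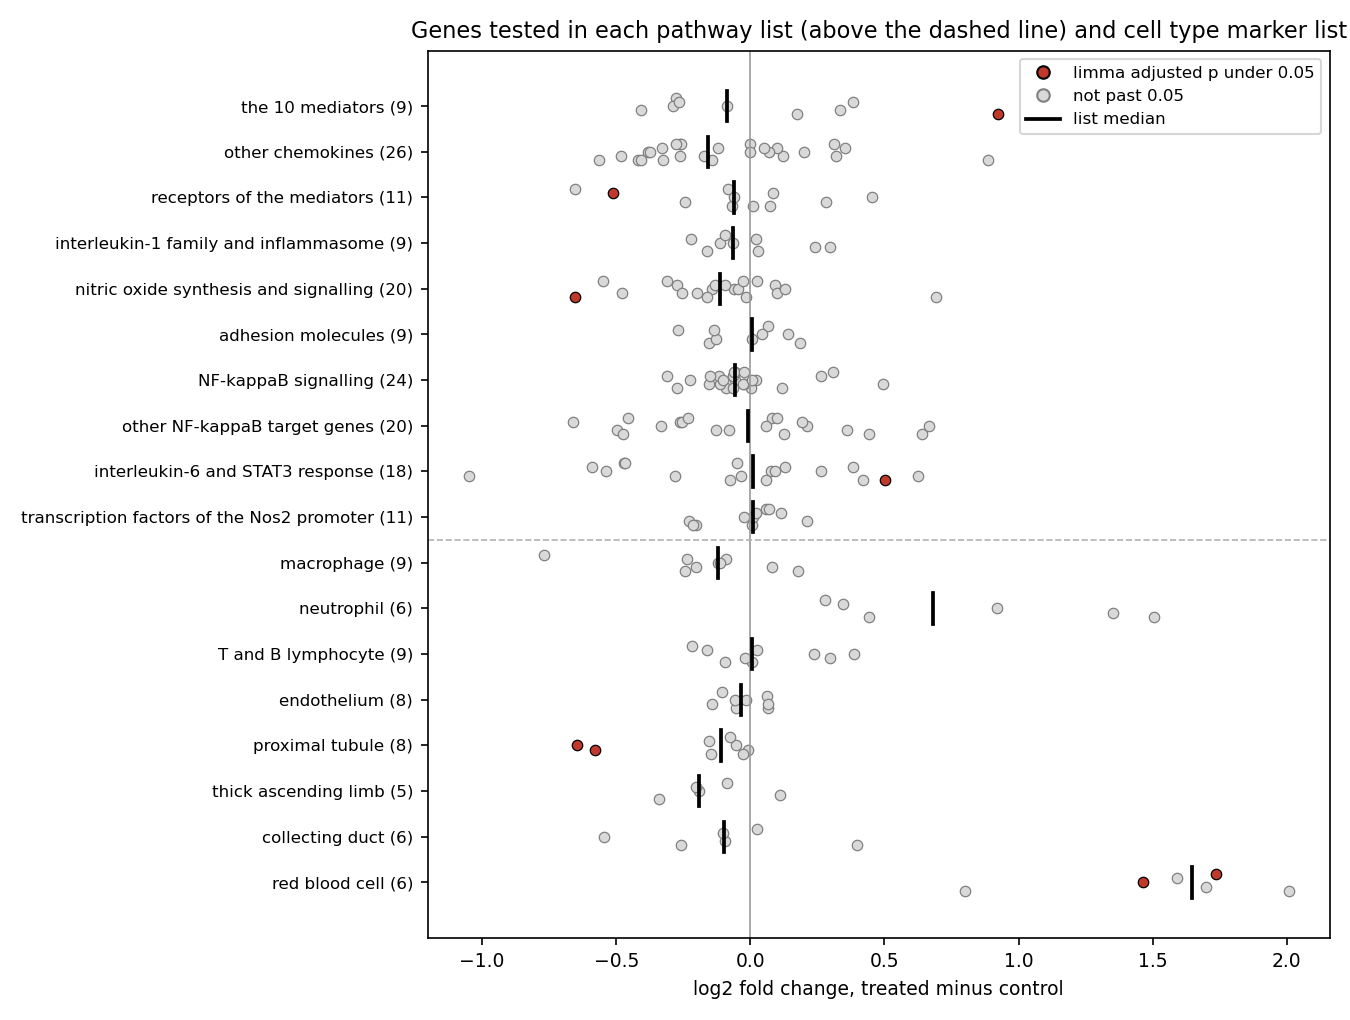
Log2 fold change, treated minus control, of each gene tested in the pathway lists (above the dashed line) and the cell type marker lists (below it), with the number tested in brackets. Each point is 1 gene, red points have a limma adjusted p under 0.05 and black bars are list medians. Most pathway lists centre near 0, whereas the medians of the neutrophil and red blood cell lists are 0.68 and 1.65.

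Markers of the cells that could carry these transcripts were read on the same arrays. The summed level of a list is the sum of its tested genes' signals, each divided by the 75th percentile of the array. For 6 neutrophil markers tested of 10 listed it was 2.60 to 3.28 in treated animals and 1.39 to 2.25 in control animals, without overlap. All 6 had a higher mean, 5 did not overlap and limma called 0, with 4 higher and 0 lower by p without adjustment under 0.05. Among all genes tested, 14.1% were higher without overlap and 11.8% were higher by limma p without adjustment under 0.05. Csf3r, the receptor of granulocyte colony-stimulating factor, and the defensin gene Np4 had the smallest p values, with log2 fold changes of 0.92 (adjusted p = 0.076, SE 0.22) and 0.28 (adjusted p = 0.085, SE 0.07). S100a8 and S100a9, the calgranulins of neutrophils and named here after their values were seen, had log2 fold changes of 1.51 (adjusted p = 0.1, SE 0.42) and 1.35 (adjusted p = 0.095, SE 0.36). With a normexp background the values were 0.34 for Csf3r, 0.22 for Np4, 1.16 for S100a8 and 1.28 for S100a9. The median of the list was then 0.35, against 0.68 with the scanner's processed signal. Elane and Ltf, defining genes of neutrophil granules, were not well above background on any array.

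Macrophage markers had a summed level of 58.7 to 88.5 in treated animals and 79.0 to 93.7 in control animals, and 9 of the 10 listed were tested with a median of -0.12. T and B lymphocyte markers summed to 1.53 to 1.79 in treated animals and 1.30 to 1.54 in control animals over 9 genes. Endothelial markers summed to 76.9 to 88.6 in treated animals and 82.8 to 93.6 in control animals over 8 genes. Limma called 0 genes of these 3 lists, with 1 higher and 0 lower by p without adjustment under 0.05 among the lymphocyte markers and 0 in the other lists. Red blood cell markers summed to 215 to 324 in treated animals and 139 to 182 in control animals. Of these, 2 of 6 tested were called higher, Gata1 among them, against 3.05% of all genes. In control animals the Gata1 probe never stood well above background, so it entered the test only through the treated group. Its call is therefore partly set by the filter. The log2 fold change of Gata1 was 1.74, and 0.24 with a normexp background. The list median was 1.65, and 1.09 with a normexp background. All 8 proximal tubule markers had a lower mean, with a summed level of 1191 to 1226 in treated animals and 1249 to 1382 in control animals, without overlap. A lower mean was found for 6848 of the 12130 genes tested. Limma called 2 of the 8 markers lower, against 1.33% of all genes. These were the water channel gene Aqp1 at a log2 fold change of -0.58 (adjusted p = 0.034, SE 0.09) and the brush border peptidase gene Anpep at -0.65 (adjusted p = 0.030, SE 0.09). The other 6 did not pass, with log2 fold changes of -0.15 to -0.01. Thick ascending limb markers summed to 288 to 374 in treated animals and 346 to 473 in control animals over 5 genes. Collecting duct markers summed to 156 to 202 in treated animals and 185 to 207 in control animals over 6 genes. Both sums overlapped, and limma called 0 genes of either list. Their medians were -0.19 and -0.10, against -0.11 for proximal tubule, so a lower median was not particular to that list. In all treated animals, where Nos2 was higher, the summed neutrophil and red cell levels were thus higher and the proximal tubule level lower. The part of these levels in the Nos2 result was not tested.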

How the data were processed

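The deposited scanner files give a Cy3 signal intensity per spot, background-subtracted and detrended by Agilent Feature Extraction 10.7.1.1 per the file headers (10.7 per the submitters' processing notes), on an array design tied to build rn4. Values in the deposited series table are a linear ratio. Each column equals the array's processed signal over its 75th percentile (median quotient 0.998 at values of 1 or more), with column medians of 0.110, 0.108 and 0.108 for treated and 0.105, 0.105 and 0.109 for control arrays. It is neither logged nor centred per gene, and the sources used here do not state that step.

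From the intensities, log2 values were scaled to each array's 75th percentile. Outlier spots, 1 to 3 per array and none on a member probe, were treated as missing, and 0 spots were saturated. Accessions without versions matched RefSeq genes (assembly GRCr8) for 28206 probes, which belong to 15645 genes, and 33331 stayed unnamed. Because rn4 and GRCr8 differ, no probe positions are given. No 2 arrays had identical signals. Groups came from the sample titles, and the design text calls the animals biological replicates.

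The groups were compared with limma 3.58.1 in R 4.3.3 (lmFit, eBayes) and Benjamini-Hochberg adjustment over all genes. The intervals are 95%, with 5.77 degrees of freedom. On simulated arrays of 12100 genes, limma found 73.6% of simulated 2-fold changes and 94.4% of 4-fold ones, with 11.4 false calls among 179 on average. The simulation drew each gene independently, with 200 changed genes and no slide effect. In the data each group had its own slide, and 25.0% of genes had a limma p without adjustment under 0.05. These rates therefore need not hold for the data.

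The members, the gene lists, the tests and the alternatives were chosen with earlier results of these data known. Named genes are the 10 members, up to 4 called genes of each list (or the 2 with the smallest p), and the 5 genes most like Nos2. Others are said to be chosen after their values were seen. Slide or scan could not be fitted as a block, since each held 1 group. The planned normexp correction used median spot and background signals. The labels state no pairing of the animals by replicate number. Deviations of same-numbered animals from their group means correlated at -0.12, -0.11 and 0.09 across genes. Those of differently numbered animals correlated at -0.09 to 0.21, so these values cannot decide whether animals were paired. Some genes of the lists are counted but not reported by name here.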

Additional observations from a re-analysis of the deposited data

How the results depend on the processing

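Nos2 kept its direction in every fit run. Its log2 fold change was 0.39 with a normexp background and 0.89 to 0.92 with quantile or median scaling, no filter, a stricter filter, the deposited value table, an intensity trend, the mean of probes and every probe as its own feature, with adjusted p values of 0.003 to 0.039. Only the brighter Nos2 probe was kept, so both filter settings, the trend, the mean of probes and every probe reused its same values. The deposited value table holds the same scaled signal. In these fits the fold change of Nos2 was thus fixed in advance, or nearly so with the deposited table, and only its p could move. Normexp adds an offset and also starts from median spot and background signals. The part of either in the smaller Nos2 value under normexp was not tested. The replicate block used numbers for which the labels state no pairing. With it, limma gave Nos2 an adjusted p of 0.109, 0 members were called, and 0 genes were higher and 0 lower (2547 by p without adjustment under 0.05). Leaving out 1 array gave Nos2 values of 0.88 to 0.96. Omitting control replicate 1 ended its call (adjusted p = 0.0502), as did omitting control replicate 3 (0.059), treated replicate 2 (0.063) or treated replicate 3 (0.067), and it held without control replicate 2 (0.0498) and treated replicate 1 (0.047), so that 0 to 1 members were called. In the same limma fits 0 to 48 genes were higher and 0 to 6 lower, against 370 and 161 with all arrays, while 2437 to 2647 had a p without adjustment under 0.05.

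The counts of all genes moved with the processing. Normexp called 459 higher and 513 lower, 47.2% higher against 69.7%. No filter called 37 and 7, an intensity trend 441 and 395, and the mean of probes 229 and 63. Of the pathway lists, nitric oxide genes had 3 calls with normexp and 4 with a trend (1 before), receptors 2 with normexp (1 before), interleukin-6 and STAT3 genes 2 with either (1 before) and NF-kappaB signalling 1 with normexp (0 before). Cxcl1 changed sign with normexp (0.18) and without control replicate 3 (0.02) or treated replicate 1 (0.06), and ran from -0.20 to 0.06 over the fits without 1 array. Cxcl10 changed sign without treated replicate 1, with a range of -0.071 to 0.67, and Il1b without treated replicate 3, with a range of -0.056 to 0.33. None of these was called, and the cause was not tested. Il6 enters the fit without a filter, but no array showed it well above background, so no difference is given for it. Signal close to background limits Nos2, Cxcl1, Il6 and the dimmer Tnf probe.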
